A study of Mus musculus with 9 samples.

Results

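The genes described are the 6 of 330 genes on a mouse metabolic array that act in the breakdown of stored fat or in the coat of the lipid droplet. They were chosen by their role: the receptor genes Adrb3 and Adra2a, the kinase gene Prkaca, the lipase genes Pnpla2 and Lipe, and the coat gene Plin1, which the array lists under its older name Plin. Each was read on all 9 arrays. The cells were 3T3-L1, a mouse preadipocyte line that stores fat after hormonal induction, and total RNA of each culture was hybridised in 1 colour. In chickpea medium, with 0.5% of a preparation that the labels abbreviate CP and the sample titles call Chickpea, cells were taken on days 2, 4, 6 and 8. In control medium without additive they were taken on the same 4 days. The day 0 sample held confluent preadipocytes before induction. All cultures of days 2 to 8 had received methylisobutylxanthine, dexamethasone and insulin for the first 2 days and insulin from then on. What the preparation contained is not given in the labels.

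Lipolysis is the stepwise release of fatty acids and glycerol from the triglyceride of a lipid droplet. Catecholamines bind beta adrenergic receptors, cyclic AMP rises and protein kinase A phosphorylates perilipin 1 and hormone-sensitive lipase, while alpha 2 receptors lower cyclic AMP and insulin opposes the cascade. Adipose triglyceride lipase takes the first fatty acid and hormone-sensitive lipase the next. Methylisobutylxanthine blocks the phosphodiesterases that break down cyclic AMP.

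Lipe and Plin1 were far lower in chickpea than in control medium on every day from day 2 to day 8, and both passed the test. Pnpla2 was at about the same level in both media on day 2 and lower in chickpea medium from day 4 on, and it did not pass. Prkaca differed little between media, Adrb3 was measured above the floor on 1 control array alone, and Adra2a stayed near or below the floor. Lipe and Pnpla2 lay above their day 0 level on every later array of either medium, and Plin1 on every later control array and on the day 8 chickpea array.

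The arrays had 321 metabolic genes and 9 control genes. Levels are log2 of the deposited intensity after quantile scaling of the arrays, and raw units are the scanner's intensity above local background. A spot was taken as measured above 10 units, and scaled values were set to a floor of 3.39, below which arrays could not be ordered. Between 62.3% and 73.2% of the metabolic genes were above that limit on an array. The median raw spot was at 55 to 83 units on the chickpea arrays and at 47 to 168 units on the control arrays. There was 1 array for each medium and day, so no level has a replicate. The test between media uses the variation of the same-day difference over 4 days as its error, and its median residual SD over genes was 0.38. For the change of that difference with day, the error is the scatter about a slope (median SD 0.23). For the lines over day in 1 medium it is the scatter of 5 arrays about the line (0.37 in control and 0.38 in chickpea medium). In total RNA of a culture, fewer adipocytes and less RNA per adipocyte cannot be told apart.

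RefSeq promoter windows (GRCm38.p6) were at hand for 5 of the 6 genes, each with 250 bases before and 50 after a transcript start. Those of Lipe, Plin1 and Pnpla2 are shown because these 3 of the 6 genes had the largest fitted differences between media. Each is written 5′ to 3′ on the strand of the gene. Capitals mark matches to the motifs named after them.
Lipe, first listed start, minus strand, chr7:25395938-25396237: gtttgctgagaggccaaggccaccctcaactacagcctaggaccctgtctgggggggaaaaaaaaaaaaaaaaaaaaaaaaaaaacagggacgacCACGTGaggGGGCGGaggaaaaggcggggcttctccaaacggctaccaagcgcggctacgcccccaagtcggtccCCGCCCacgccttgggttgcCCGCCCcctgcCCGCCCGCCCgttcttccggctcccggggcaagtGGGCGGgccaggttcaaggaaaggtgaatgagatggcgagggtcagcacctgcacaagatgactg
Plin1, minus strand, chr7:79732727-79733026: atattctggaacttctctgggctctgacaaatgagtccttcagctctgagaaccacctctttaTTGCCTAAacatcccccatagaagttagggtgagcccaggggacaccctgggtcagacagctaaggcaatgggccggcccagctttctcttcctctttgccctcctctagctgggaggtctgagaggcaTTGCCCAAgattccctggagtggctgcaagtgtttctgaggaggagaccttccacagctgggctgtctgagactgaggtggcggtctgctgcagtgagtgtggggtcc
Pnpla2, plus strand, chr7:141454938-141455237: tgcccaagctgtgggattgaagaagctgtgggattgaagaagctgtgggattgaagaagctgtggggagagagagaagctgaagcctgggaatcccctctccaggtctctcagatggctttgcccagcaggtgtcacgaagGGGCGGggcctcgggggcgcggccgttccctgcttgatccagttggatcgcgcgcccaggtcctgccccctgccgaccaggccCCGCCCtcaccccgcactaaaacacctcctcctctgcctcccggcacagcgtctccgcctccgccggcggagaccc
The C/EBP site TTGCNNAA, bound by adipogenic C/EBP factors, had 2 matches in the Plin1 window, beginning at -187 and -58 from the start. Of 32851 windows in the mouse table, 10.8% held at least 1. The Lipe and Pnpla2 windows held none of it.

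The GC box GGGCGG had 6 matches in the first Lipe window, of which the pair at -49 and -45 overlap, and 2 in the Pnpla2 window, at -109 and -26. It was in 35.7% of all windows and in 53.1% of those of genes on the array. The E-box CACGTG was at -155 in the first Lipe window. It was in 7.15% of all windows and 8.59% of those of array genes. A second listed Lipe start, on the minus strand at chr7:25390063-25390362, held no match to any motif searched.

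Both strands were searched for 8 motifs. Besides the windows shown, those of the first listed Prkaca start and of Adra2a also held the E-box and the GC box. CCAAT (37.4% of windows) was found 4 times at that Prkaca start, while the second listed Prkaca start held no match, and the TATA box TATAAA (13.6%) once at Adra2a. The peroxisome proliferator element, a repeat of AGGNCA with 1 base between (0.381%), was in no window of these 5 genes. Nor were the nuclear receptor site AGGTCA (16.3%) and the cyclic AMP element TGACGTCA (1.79%). A match is a stretch of letters and not a measured binding site.

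**Figure D1:**
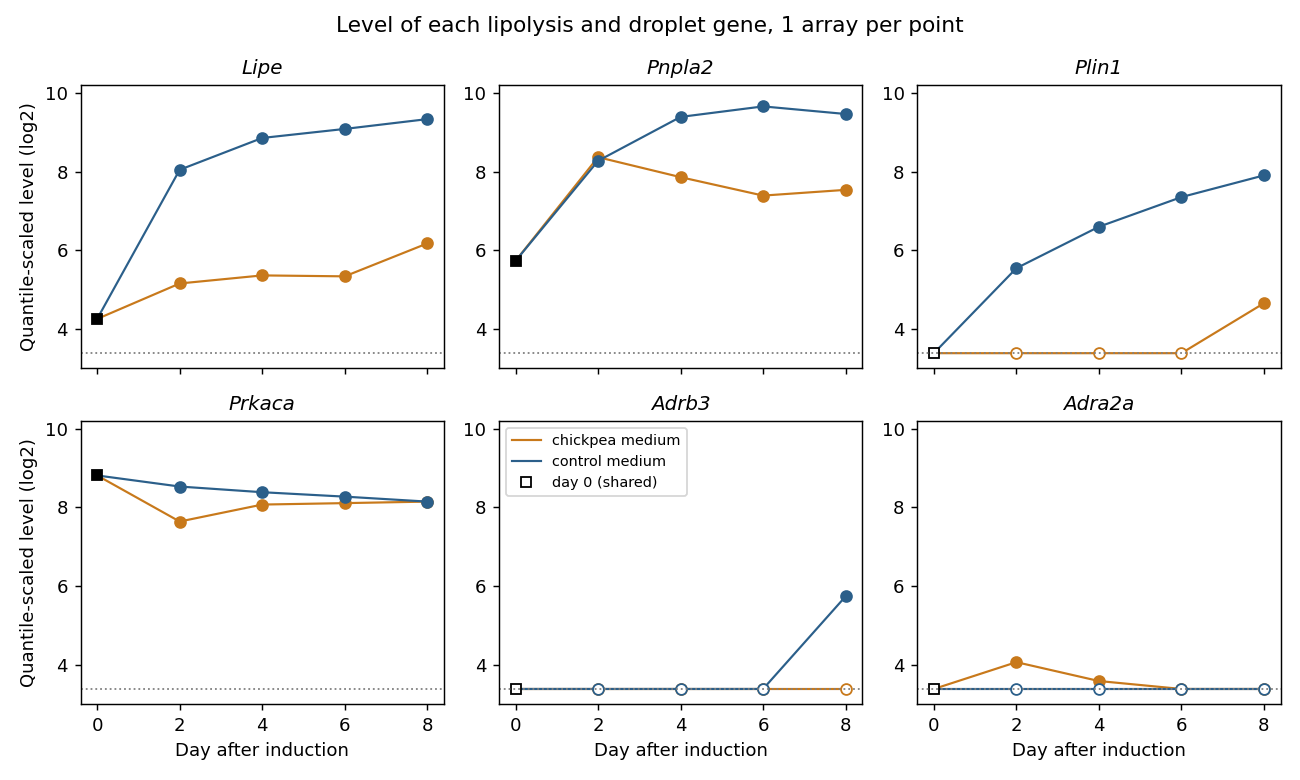
Quantile-scaled log2 level (y axis) of each gene by day after induction (x axis), with 1 array per point, for chickpea medium (orange) and control medium (blue). The day 0 array (square) is shared, open symbols lie at the floor (dotted line, 3.39). Lipe and Plin1 in chickpea medium run below control medium on each day, and Pnpla2 parts after day 2.

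Among the receptors, Adrb3 encodes the beta 3 receptor of rodent fat cells. In chickpea medium its spot read 1, 1, 0 and 0 units on days 2, 4, 6 and 8. In control medium it read 0, 1, 3, 57 and 221 units on days 0, 2, 4, 6 and 8. After scaling, all 4 chickpea arrays and all control arrays but that of day 8 were at the floor. Day 8 in control medium stood at 5.74. Adrb3 was therefore lower in chickpea medium on day 8 by at least 2.35 on the log2 scale (at least 5.11-fold), and on days 2, 4 and 6 no difference was measured. Adrb3 entered the fits through the control arrays of days 6 and 8 alone. No fitted value is therefore given for it in the text, and its points in the figures are not results. Gcg, the proglucagon gene and the only one of 4 islet markers on the array that could be tested, was likewise brightest on the later control arrays. It read 16 and 181 units there on days 6 and 8, and 2 to 5 units on the chickpea arrays. Its part in the Adrb3 result was not tested.

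Adra2a encodes the alpha 2A receptor, which lowers cyclic AMP and so restrains lipolysis. It read 23, 12, 9 and 6 units in chickpea medium on days 2, 4, 6 and 8. In control medium it read 5, 7, 11, 19 and 30 units on days 0, 2, 4, 6 and 8. Raw units ran down with day in the first medium and up in the second, but control arrays were also brighter overall from day 4 on. After scaling, Adra2a was above the floor on the chickpea arrays of day 2 (4.07) and day 4 (3.59) alone. It was at least 0.68 higher in chickpea medium on day 2 and at least 0.20 higher on day 4, and on days 6 and 8 both media were at the floor. The fitted difference was 0.22 ± 0.21 (SE; limma adjusted p = 0.433) and turned to -0.024 when arrays were scaled on control genes. With quantile scaling all control values were at the floor, so the fitted difference could not be negative and its error follows the chickpea arrays.

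The array held 7 adrenergic receptor genes, a group put together after its gene names were seen. Of the 5 that could be tested between media, 0 passed, with a median difference of 0.22 against 0.21 over all 238 genes tested. These 5 include Adrb3, which entered through control arrays alone and could only point down. Adra1d, Adra2b and Adra2c, the receptors of this group outside the 6 genes, had differences of -0.10, 0.27 and 0.42. Adra2b was at the floor on all 4 control arrays of days 2 to 8, so its difference could not be negative. Adra2c was at the floor on 3 of those 4. In raw units Adra2b read 9 to 20 on the chickpea arrays and 8 to 24 on those control arrays. The median of 0.22 is the value of Adra2a, which could not be negative either. Adra1a was at the floor on every array, and Adra1b on every array of days 2 to 8.

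Prkaca encodes the catalytic alpha subunit of protein kinase A, which phosphorylates the coat and the lipase. Its level was 7.64, 8.07, 8.11 and 8.15 in chickpea medium on days 2, 4, 6 and 8. In control medium it was 8.81, 8.53, 8.38, 8.27 and 8.15 on days 0, 2, 4, 6 and 8. The chickpea arrays lay at or below every control array, the day 8 values being equal because the gene had the same rank on both arrays. Only 1 of 8 steps between neighbouring levels exceeded 0.38, that between chickpea day 2 and chickpea day 4. On days 2, 4, 6 and 8 the same-day difference was -0.89, -0.31, -0.16 and 0.00. Its mean was -0.34 ± 0.22 (SE; limma adjusted p = 0.284). With control gene scaling the difference was -1.06 and passed (adjusted p = 0.0439), where the median of all genes was -0.38.

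Pnpla2 encodes adipose triglyceride lipase. Its level was 8.37, 7.86, 7.39 and 7.54 in chickpea medium on days 2, 4, 6 and 8. In control medium it was 5.73, 8.27, 9.39, 9.65 and 9.46 on days 0, 2, 4, 6 and 8. Raw intensity was 282 to 695 units on the chickpea arrays and 398 to 3717 units on the control arrays of days 2 to 8. The day 2 levels of both media stood side by side in the order of all 9 arrays, 0.09 apart. The later control arrays lay above all chickpea arrays and, with steps of 0.07 and 0.19 between them, were not separated from each other. In chickpea medium day 2 was the highest of the 4 days. The difference on day 4 was -1.53 (2.89-fold lower in chickpea medium), on day 6 -2.26 (4.81-fold) and on day 8 -1.93 (3.80-fold). The mean over days 2 to 8 was -1.41 ± 0.42 (SE; limma adjusted p = 0.0635). Without the day 2 arrays it was -1.91 and passed (adjusted p = 0.00596).

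Lipe encodes hormone-sensitive lipase. Its level was 5.16, 5.36, 5.34 and 6.18 in chickpea medium on days 2, 4, 6 and 8. In control medium it was 4.26, 8.05, 8.85, 9.08 and 9.33 on days 0, 2, 4, 6 and 8. The groups did not overlap, and the step of 1.87 between the highest chickpea level and the lowest control level of days 2 to 8 was the widest in the order of all 9 arrays. In raw units the chickpea arrays read 64 to 103 and the control arrays of those days 344 to 3179. The day 2, 4 and 6 levels in chickpea medium lay within 0.38 of each other. Lipe was 7.40-fold, 11.2-fold, 13.4-fold and 8.92-fold lower in chickpea medium on days 2, 4, 6 and 8. The mean difference was -3.32 ± 0.22 (SE; limma adjusted p = 0.00262).

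Plin1 encodes perilipin 1, which coats the droplet and controls access of the lipases to it. It was at the floor in chickpea medium on days 2, 4 and 6, where it read 3, 2 and 11 units, and at 4.66 on day 8 (32 units). In control medium it was at the floor on day 0 (0 units) and at 5.55, 6.60, 7.35 and 7.90 on days 2, 4, 6 and 8 (63, 296, 524 and 900 units). Every control array of days 2 to 8 lay above every chickpea array. Plin1 was lower in chickpea medium by at least 2.16 on the log2 scale on day 2, at least 3.21 on day 4 and at least 3.96 on day 6. On day 8, with both arrays above the floor, the difference was -3.25, or 9.49-fold. The fitted mean over days, with chickpea values set at the floor on 3 of 4 days, was -3.14 ± 0.32 (SE; limma adjusted p = 0.00667). Its error follows the control arrays on those 3 days.

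**Figure D2:**
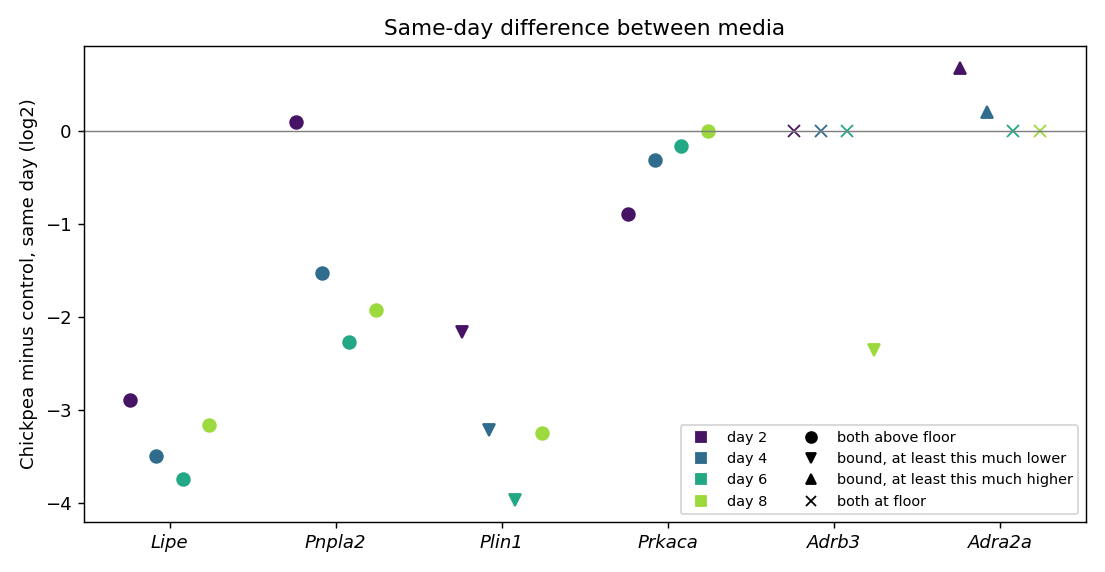
Same-day difference of chickpea minus control medium in log2 level (y axis) for each gene (x axis), colour giving the day. Circles have both arrays above the floor, triangles are bounds and crosses have both arrays at the floor, so no difference was measured. Lipe lies between -2.89 and -3.74, and Prkaca moves to 0.00 by day 8.

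In the comparison of media, limma with day as a block called 40 of 238 genes (16.8%), 24 higher in chickpea medium (10.1%) and 16 lower (6.72%). Of the 6 genes described, 2 passed, Lipe and Plin1, both lower. They ranked at places 8 and 9 from the most negative difference, Pnpla2 at place 22, Prkaca at 67 and Adra2a at 121. Lipe and Plin1 were also the 2 of 6 whose chickpea arrays all lay below the control arrays of days 2 to 8, as did 8.5% of 247 genes. They were called under all 5 scalings, with differences from -4.28 to -3.32 for Lipe and from -3.61 to -3.14 for Plin1. A two-sided exact sign-flip test of the 4 same-day differences gave p = 0.125 for each of them, the smallest p that 4 days allow. The comparison asks whether the same-day difference exceeds its variation between days. The spread between cultures of 1 day was not measured.

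**Figure D3:**
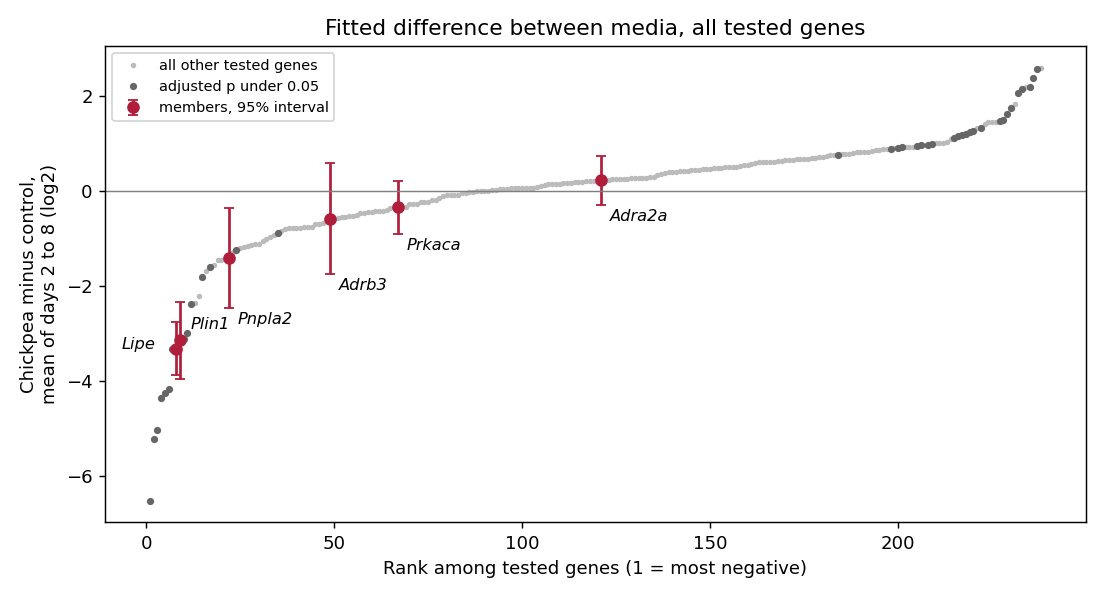
Fitted mean difference of chickpea minus control medium over days 2 to 8 (y axis, log2) for 238 tested genes by rank (x axis). Red points are the 6 genes with 95% intervals, dark grey points passed at an adjusted p under 0.05. Lipe and Plin1 lie at places 8 and 9, and the intervals of Prkaca and Adra2a cross 0. Adrb3 entered the fit through control arrays alone and could only point down, so its point is not a result.

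**Figure D4:**
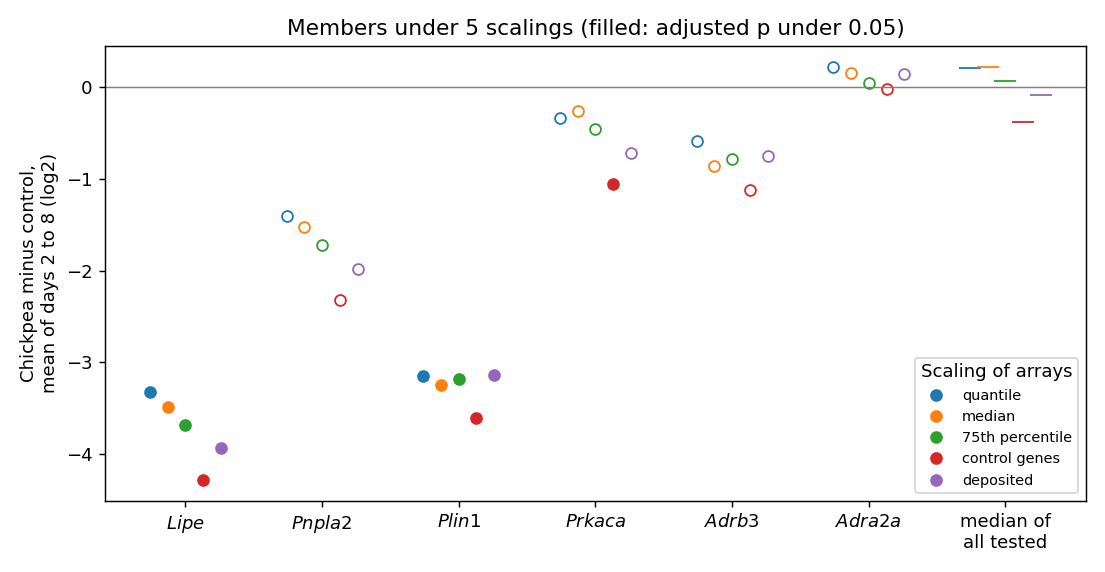
Mean difference of chickpea minus control medium (y axis, log2) of each gene (x axis) under 5 scalings of the arrays, filled where the adjusted p was under 0.05, with the median of all tested genes at the right. Lipe and Plin1 are filled under all 5, Pnpla2 under none, and Prkaca with control gene scaling alone. Adrb3 entered these fits through control arrays alone, so its points are not results.

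On single days the genes at least 2-fold lower in chickpea medium were 2 of 6 on day 2, against 17.8% of 247 genes. Day 4 had 3 of 6 (15.8%), day 6 had 3 of 6 (13.4%) and day 8 had 4 of 6 (12.6%). None of the 6 was 2-fold higher on any day, against 13.8% to 21.9% of genes. Pnpla2 joined Lipe and Plin1 on day 4 and Adrb3 joined them on day 8. Adrb3 was above the limit on control arrays alone, so in these counts it could only be lower. These daily counts have no test. The difference of Lipe was below that of Pnpla2 on all 4 days, with gaps of -2.98, -1.96, -1.48 and -1.23 on days 2, 4, 6 and 8, a mean of -1.91 ± 0.77 (SD, n = 4 days). Over the 3 pairs among Lipe, Plin1 and Pnpla2, chosen after their values were seen, the exact sign-flip p was 0.125 for Lipe against Pnpla2 (0.188 adjusted over the pairs). The 2 pairs with Plin1 rest on its bounds of days 2, 4 and 6, so no p is given for them.

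A change of the difference with day was then tested. It asks whether a gene moved further from, or closer to, its control level from day 2 to day 8. Limma called 11 of 238 genes (4.62%), 9 with an upward slope (3.78%) and 2 with a downward one (0.84%), of which 0 were among the 6 described. The slope was -0.34 ± 0.12 log2 per day for Pnpla2 (SE; limma adjusted p = 0.132), 0.14 ± 0.07 for Prkaca (0.186) and -0.05 for Lipe. For Plin1, Adra2a and Adrb3 most same-day differences were bounds or not measured, so their slopes are not given. Pnpla2 passed without the day 8 arrays at -0.59 (adjusted p = 0.0117). Of the cyclic AMP cascade, Rgs2, a regulator of G protein signalling, passed upward at 0.55 per day (limma adjusted p = 0.0248). Its level was 8.00, 7.50, 8.57 and 9.39 in chickpea medium on days 2 to 8, against 10.18, 9.14, 8.90 and 8.33 in control medium. Rgs2 was thus lower in chickpea medium on days 2, 4 and 6 and higher on day 8. With control gene scaling or on the deposited values it did not pass.

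The time courses follow the genes by day in each medium, and both include the single day 0 array. Lipe in control medium was 13.8-fold above day 0 on day 2 and 33.7-fold on day 8. In chickpea medium it was 1.87-fold above day 0 on day 2 and 3.78-fold on day 8. Pnpla2 in chickpea medium was 6.21-fold above day 0 on day 2 and 3.49-fold on day 8, and in control medium 5.82-fold and 13.3-fold. Plin1 in chickpea medium was at least 2.41-fold above day 0 on day 8, and in control medium at least 22.9-fold.

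On day 2, 1 of 6 was at least 2-fold above day 0 in chickpea medium (16.6% of 247 genes were), and 3 of 6 in control medium (14.6%). On day 4 there were 2 in chickpea medium (15.8%) and 3 in control medium (12.1%). On day 6 there were again 2 in chickpea medium (13%) and 3 in control medium (15.4%). By day 8 there were 3 in chickpea medium (10.9%) and 4 in control medium (16.2%). Among those 4 was Adrb3, which was above the limit on later control arrays alone, so it could only be higher than day 0. Plin1 and Adra2a were also at the floor on day 0, so in these counts they could not be lower than day 0. Prkaca was 2.25-fold below day 0 in chickpea medium on day 2, the 1 of 6 at least 2-fold lower there (15% of genes). It was 1.58-fold below day 0 on day 8 in both media.

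A straight line over day did not pass for any gene in either medium. In chickpea medium 0 of 226 genes were called by limma, 22 at an unadjusted p under 0.05. Slopes there were 0.20 ± 0.05 log2 per day for Lipe (SE; limma adjusted p = 0.431), 0.13 ± 0.13 for Pnpla2 and -0.04 for Prkaca. Plin1, Adra2a and Adrb3 were at the floor on most or all arrays of this line. In control medium 0 of 230 genes were called, 77 at an unadjusted p under 0.05. The slopes were 0.54 ± 0.08 for Plin1 (SE; limma adjusted p = 0.0713), 0.56 ± 0.16 for Lipe (0.0923), 0.44 ± 0.13 for Pnpla2 (0.0923) and -0.08 ± 0.03 for Prkaca (0.184). With the square root of day in place of day, which gives more weight to the early rise, 24 genes passed in control medium, among them Lipe (adjusted p = 0.0262), Pnpla2 (0.0262) and Plin1 (0.00245).

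The rest of the pathway was read from lists of genes by role. Of lipases, cofactors and droplet coat, 4 of 19 listed genes were on the array: the 3 above and Lpl, lipoprotein lipase, which hydrolyses circulating fat and not droplet fat. All 4 had negative differences between media, with a median of -2.30 against 0.21 over all genes, and 2 passed. With median scaling 3 of the 4 passed, Lpl among them (adjusted p = 0.0457). Lpl was at 11.20, 10.55, 11.02 and 11.85 in chickpea medium on days 2 to 8, against 11.20, 12.67, 13.28 and 13.28 in control medium, a mean of -1.46 ± 0.42 (SE; limma adjusted p = 0.0591). Like Pnpla2 it was level between media on day 2 and lower in chickpea medium later. Of the beta adrenergic and cyclic AMP cascade, 5 genes were tested and 0 passed, 3 with negative and 2 with positive differences. Their median of -0.34, the value of Prkaca, counts Adrb3, which entered through control arrays alone and could only point down. With control gene scaling Prkaca passed downward, as above. Creb1, a transcription factor that protein kinase A activates, was 1.09 ± 0.28 higher in the fit (limma adjusted p = 0.0530) and passed upward with median scaling (0.0492).

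Of 9 tested genes for fatty acid and glycerol handling, 2 fell and 1 rose in chickpea medium, with a median of -0.70. Acsl1, which activates fatty acids to acyl-CoA, fell by 3.33 ± 0.38 (SE; limma adjusted p = 0.00667). Its level was 5.95 to 6.71 on the chickpea arrays, against 8.81 to 10.36 on the control arrays of days 2 to 8. Gpd1, which makes glycerol 3-phosphate for triglyceride, lay at the floor in chickpea medium on each day and at 3.46, 8.81, 9.27 and 9.04 in control medium. It was above the limit on 3 control arrays and no chickpea array, so its fitted difference of -4.26 ± 1.05 (adjusted p = 0.0482) could only point down. Gk, glycerol kinase, rose: it was at 5.31, 6.99, 6.35 and 6.36 in chickpea medium on days 2 to 8, against 4.68, 4.43, 3.58 and 3.73 in control medium. Its difference was 2.15 ± 0.41 (adjusted p = 0.0257). With control gene scaling Gk (adjusted p = 0.05001) and Gpd1 (0.0543) did not pass, nor did Gpd1 with 75th percentile scaling (0.0509). On the deposited values none of the 3 passed, with -3.92, -4.35 and 1.35.

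Insr encodes the insulin receptor, through which insulin restrains lipolysis. It was at 5.34, 5.74, 5.46 and 5.16 in chickpea medium on days 2 to 8, against 3.73, 4.01, 4.13 and 4.52 in control medium. It rose by 1.33 ± 0.25 (SE; limma adjusted p = 0.0257), with no overlap between the media. Chickpea levels lay above control levels with no overlap for 17.8% of 247 genes. Under the other 4 scalings Insr did not pass, with differences of 0.25 to 1.04. Of the 11 tested genes listed for the insulin brake on lipolysis, 3 rose, Insr among them, and 0 fell. Their median was 0.48 against 0.21 over all genes, with 10 positive differences and 1 negative. With median scaling 1 of the 11 rose, and on the deposited values 0 did. Of the 4 tested genes listed for AMP-activated kinase (AMPK), an energy sensor, 0 passed, with a median of 0.25. They were Prkaa1, Prkab1, Prkag2 and Stk11, the last an upstream kinase and not a subunit.

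**Figure D5:**
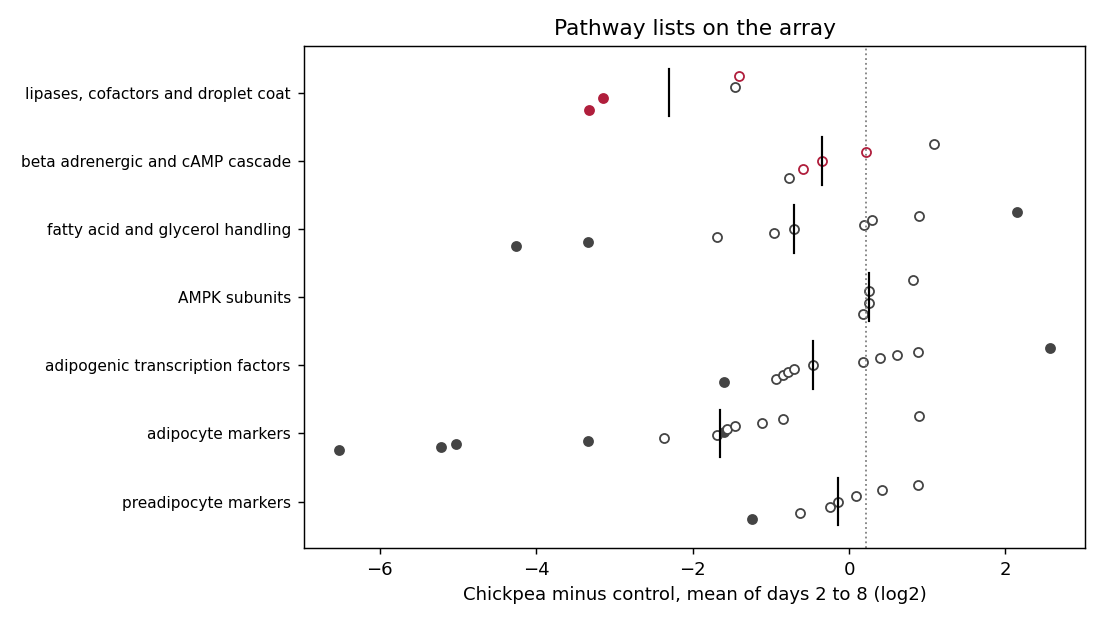
Difference of chickpea minus control medium, mean of days 2 to 8 (x axis, log2), of each tested gene in 7 lists (rows). Red points are the genes described, filled points passed at an adjusted p under 0.05, bars are list medians and the dotted line is the median of all tested genes. The lipase and coat list lies wholly below 0, with a median of -2.30. In the cyclic AMP cascade row, Adrb3 entered through control arrays alone, so its point is not a result. The row of AMPK subunits also holds Stk11, an upstream kinase.

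Adipocyte identity was read from markers other than the 6 genes. On the chickpea arrays of days 2, 4, 6 and 8, 8, 8, 9 and 10 of 13 adipocyte markers were above the limit, and their median level was 5.95 to 6.60. In control medium the counts were 6 on day 0 and 11, 12, 12 and 13 on days 2, 4, 6 and 8, with medians of 6.63 to 9.71 on those 4 days. On day 2 the medians lay close, at 6.60 in chickpea and 6.63 in control medium. On days 4, 6 and 8 they were 5.95, 6.27 and 6.55 in chickpea medium, against 9.04, 9.71 and 9.39 in control medium. Of the 12 tested, 5 fell in chickpea medium and 0 rose. Cfd (adipsin) had a fitted difference of -6.52, Adipoq (adiponectin) -5.22 and Retn (resistin) -5.03. Cfd was at the floor on the chickpea arrays of days 2, 4 and 6 and Adipoq on those of days 2 and 4. Cfd was above the limit on 4 control arrays and 1 chickpea array (15 units, day 8), so it entered the fit through control medium. Retn was above the limit on 4 control arrays and no chickpea array, so its call could only point down, and Slc2a4, the insulin-dependent glucose transporter, which did not pass, likewise entered through control arrays alone. Pparg, the nuclear receptor that drives adipogenesis, fell by 1.60 ± 0.26 (SE; limma adjusted p = 0.0178), and Acsl1 was the remaining one. On the deposited values Cfd alone of the 5 passed. Of the 12, 11 had a negative fitted difference and 1, Cd36, a positive one. Cd36, a fatty acid transporter, was at 8.81 in chickpea medium on day 2, against 4.61 in control medium. On days 4, 6 and 8 it was at 8.00, 8.94 and 9.27, against 8.49, 8.94 and 9.39. Hsd11b1, which activates glucocorticoids, was higher in chickpea medium on day 2 alone (7.72 against 6.43). Its fitted difference was -1.12 and did not pass. Agt, angiotensinogen, had a fitted difference of -1.56 that did not pass. The difference of Agt had an upward slope of 0.82 log2 per day (limma adjusted p = 0.00504), a call lost under control gene scaling (0.120) and lost on the deposited values (0.201). The part of these markers in the results for Lipe, Plin1 and Pnpla2 was not tested. Of 11 adipogenic transcription factors tested, Pparg fell and the coactivator Ppargc1a rose by 2.57 in the fit, with its control arrays of days 2 and 4 at the floor, a call lost on the deposited values and when arrays were scaled on control genes. Of 7 tested preadipocyte markers, Dlk1 fell by 1.24 and 0 rose, and Dlk1 did not pass on the deposited values. Of 2 hepatocyte markers on the array none was above the limit on any array, and the array held none of the macrophage or muscle markers.

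Genes with the pattern most like each of these over the 9 arrays were ranked by Pearson r among 220 genes. The arrays share a time course, so these values are descriptions. For Lipe they were Acsl1 (r = 0.98), Plin1 (0.97) and Pcx (0.97), pyruvate carboxylase. For Plin1 they were Cfd, Lipe and Adipoq (0.97 each). Plin1 and Cfd were both at the floor on day 0 and on chickpea days 2, 4 and 6. Adipoq was at the floor on day 0 and on chickpea days 2 and 4. For Pnpla2 the most alike genes were Fabp4, the fatty acid binding protein of adipocytes (0.91), Acsl1 (0.89) and Pparg (0.89). Prkaca was most like Sparc (0.97), Acat3 (0.94) and Acat2 (0.93). Adra2a was most like Mapk8 (0.98), Pdpk1 (0.92) and Pdha1 (0.90), with 7 of its 9 levels at the floor. Among the 6 genes, r was 0.87 between Lipe and Pnpla2 and 0.80 between Plin1 and Pnpla2. Prkaca had r = 0.10 with Lipe and -0.36 with Pnpla2. Adrb3 was above the limit on 2 arrays, too few for a ranking.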

How the data were processed

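RNA from 3T3-L1 cells, 9 cultures in all, was hybridised to an array per culture. Spots were scanned with GenePix, per the file headers, which give median pixel intensity minus local background. The authors deposited a table of linear intensity, its making not given in the sources used here. It was worked out from the values that each equals the scanner's spot plus 2 or 3 units, scaled so that the Gapdh spots of a block average 10000. All 354 entries matched 1 spot within a relative tolerance of 1e-06, and rows were named and raw units taken through that match. Scanner wells match no sample label, so groups came from the deposited table's samples. 3 scanner wells belonged to no sample and were not used. Of the array's names, 316 were current symbols and 13 synonyms.

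The deposited intensity was turned into log2 values. Spots of a probe were averaged, each gene was read from its brightest probe, and quantile scaling made arrays comparable. Values were floored at 3.39, the highest over arrays of the lowest level among genes above 10 units, a limit that 3 of 369 empty and negative spots exceeded. Of 247 genes above the limit on at least 2 arrays, 9 were constant at the floor over days 2 to 8, leaving 238. Where 1 of the arrays compared was at the floor, the difference is a bound, and where both were, it is not a measurement. The 4 fits used lmFit and eBayes of limma 3.58.1 in R 4.3.3, two-sided, with Benjamini-Hochberg adjustment over all genes tested and a threshold of 0.05. They were chickpea minus control from day 2 to day 8 (8 arrays, day entering as a block), the change of that difference with day, and a line over day in each medium, the chickpea line starting from the shared day 0 array. The scripts were tested on simulated data. The number of arrays limits the precision, and with no stated replicate cultures p-values measure the spread between these arrays.

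Named were the 6 genes, list genes that passed a fit or otherwise up to 3 a list with the highest level, and the 3 genes with the highest Pearson r to each gene above the limit on at least 5 arrays. The adrenergic receptors outside the lists and Creb1 were added after the array was seen. A few results that this rule would name are not reported here. The genes and lists were chosen with earlier results of these data known. Alternatives covered scaling, filter, limit, probes, variance prior, array weights, the day block, the scale of time and leaving out arrays. Promoter windows came from RefSeq (GRCm38.p6). The array files state no build.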

Additional observations from a re-analysis of the deposited data

How the results depend on the processing

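In the comparison of media, 40 of 238 genes were called. The count was 63 with median scaling, 7 on the deposited values, 114 with limma array weights and 73 with no replicate block, that is without the pairing of arrays by day. It was 77 without both arrays of day 2, 6 without day 4 and 13 without day 6, and leaving out 1 array at a time gave 6 to 77, with 2 to 3 of the 6 genes called. The split of higher to lower calls was 24 to 16 with quantile scaling, 40 to 23 with median scaling, 21 to 21 with 75th percentile scaling, 1 to 34 with control gene scaling and 1 to 6 on the deposited values. The median of all genes was 0.21, 0.22, 0.07, -0.38 and -0.09 in that order of scalings. Lipe and Plin1 kept their direction and call under each of the 23 refits of this comparison, and lost the call in the exact sign-flip test alone. Not all of these refits are distinct. Without 1 array, its same-day partner informs its day term alone, so the fit equals that without both arrays of the day. This also holds for the change of the difference with day. Pnpla2 passed with array weights (adjusted p = 0.00398), with no replicate block (0.0207) and without day 2. Adra2a was at -0.024 with control gene scaling. For the change of the difference with day, 11 genes were called. The count was 1 with control gene scaling, 0 on the deposited values (54 at an unadjusted p under 0.05, limma), 30 for genes above the limit on 5 arrays, 17 with array weights and 0 to 49 leaving out 1 array, with 0 to 1 of the 6 genes. Lipe turned to 0.0011 with array weights and to 0.083 without either day 2 array (-0.21 to 0.083 leaving out 1 array), and Prkaca to -0.16 on the deposited values. For the line over day in control medium the count of 0 became 1 with a double limit, that gene being Plin1 (1 of the 6), 24 with the square root of day (3 of the 6), and 0 to 7 leaving out 1 array (0 to 1 of the 6). In chickpea medium it became 1 with array weights and 0 to 13 leaving out 1 array (0 of the 6). There Lipe turned to -0.00057 and Pnpla2 to -0.069 on the deposited values, and Pnpla2 to -0.11 and Prkaca to 0.047 with array weights. Leaving out 1 array gave -0.15 to 0.22 for Pnpla2 and -0.086 to 0.078 for Prkaca, with the sign turned without day 0. The cause of these changes was not tested. Levels near the floor limit what can be said of Adrb3, Adra2a and Plin1 in chickpea medium, and on control day 8 an Adra2a spot of 30 units was still at the floor after scaling.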
